A study of Drosophila melanogaster with 7 samples.

Results

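The heat shock genes of the fly nervous system are described here, taken as every row of the authors' deposited table of 1 comparison whose gene name starts with Hsp or Hsc70. The rule found 6 of the table's 2366 genes. They are 4 small heat shock genes (Hsp23, Hsp27, Hsp67Ba and Hsp67Bc) and 2 large chaperones (Hsp83 and Hsc70-4). The reference annotation names 25 such genes when Hsp67Bb, now called CG4456, is counted. They divide by name into 7 small ones and 18 large ones, so 3 small and 16 large genes of the family are not among the 2366. RNA was taken from dissected brains, ventral nerve cord included, of mid-third-instar Drosophila melanogaster kept at 25 °C until 4 days post egg lay. The 4 knockdown libraries (elav-GAL4>UAS-ISWI RNAi) used the pan-neuronal elav promoter to drive RNA interference against Iswi, which encodes the motor subunit of the ISWI nucleosome remodellers. The 3 control libraries (elav-GAL4; +) had the driver alone, and every library of both genotypes was a pool of about 40 brains. The labels give no sex, and the table's header calls the control attp2.

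Heat shock proteins are molecular chaperones. The small ones assemble into oligomers that hold unfolding proteins in a soluble state without ATP. The large ones, of the Hsp60, Hsp70, Hsp90 and Hsp110 classes, use ATP to fold, remodel or disaggregate their clients. Under heat or other protein-damaging stress the factor Hsf binds the promoters of many of these genes and releases a paused RNA polymerase. The cognate genes, such as Hsc70-4, are transcribed without stress, and several small ones are also expressed during normal development, in part under the steroid ecdysone and in a tissue-specific way. In unstressed fly cells the inducible Hsp70 genes are nearly silent.

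The table gives, for each gene, a mean normalised count over all 7 libraries, a log2 fold change of knockdown over control, a p and an adjusted p. Its largest p is 0.1, so it holds the part of the comparison with a p under 0.1. A gene of the family that is not listed either had a larger p or was not tested, and these cannot be told apart here. No values of single libraries were analysed here, so their depth is unknown, and replicate spread is seen only by way of the deposited p. Adjusted p values in the table imply 10775 tested genes. A gene was called higher or lower at an adjusted p under 0.05 in the authors' deposited table, which 2.59% of tested genes passed in the lower and 2.06% in the higher direction. As a check of the knockdown, the authors' deposited table has Iswi RNA at a log2 fold change of -2.03, which is 24.6% of control. In RNA from whole tissue, fewer cells of a type and less RNA per cell cannot be told apart.

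RNA of Hsp23, Hsp27 and Hsp67Ba fell with the knockdown and 0 genes of the family rose, by the adjusted p of the authors' deposited table. That is 12% of the 25 annotated genes of the family, beside the 2.59% of tested genes called lower, and 3 of the 7 that are small by name. How many of the 25 were tested is not known. The share is given without a test, because these 3 genes were singled out with their results known. Of the 3 called genes, 2 overlap another annotated gene on the opposite strand. The overlap is 1375 of 1733 bases for Hsp67Ba and only 49 of 1632 for Hsp27. Without these genes 1 call is left, that of Hsp23.

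In the authors' deposited table Hsp23, a cytosolic small heat shock protein, fell with a log2 fold change of -0.42 (adjusted p 2.4e-06). The error that this p implies is 0.08, and the 95% interval of the log2 fold change runs from -0.57 to -0.28. Taking the fold change as not shrunken, which no source used here states, the knockdown level was 74.6% of the control level, with an interval from 67.4% to 82.6%. The authors' deposited table gives it a mean normalised count of 20128, and the group means implied by the fold change are about 17564 in ISWI knockdown and 23547 in control brains. Hsp23 had the 83rd smallest p of the 10775 tests.

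Hsp67Ba, another member of the small family, fell with a log2 fold change of -0.51 in the authors' deposited table (adjusted p 2.8e-05, implied standard error 0.10). This was the most negative fold change of the family, 70.2% of the control level with an interval from 61.3% to 80.3%. Its mean count was 4638 in the authors' deposited table, with implied means of about 3924 in knockdown and 5590 in control brains. The gene shares 1375 of its 1733 bases with asRNA:CR43481, an antisense RNA on the opposite strand. The libraries keep strand, per the labels' protocols, but no source used here says whether counting used it, so reads of this pair may be mixed.

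Hsp27, a small heat shock protein found in the nucleus as well as the cytoplasm, fell with a log2 fold change of -0.23 in the authors' deposited table (adjusted p 0.028, implied standard error 0.07). The level was 85.1% of control, with an interval from 77.3% to 93.7%. Its mean count was 19358 in the authors' deposited table, and the implied means are about 18010 in knockdown and 21155 in control brains. Its p ranked 412th of 10775, near the end of the 501 calls. The last 49 bases of the gene overlap the pseudogene CR43483 on the other strand. Hsp67Bc, whose product promotes autophagy of misfolded proteins in fly cells, had a log2 fold change of -0.31 in the authors' deposited table and did not pass (adjusted p 0.069). At a mean count of 542 its implied standard error was 0.11, larger than for Hsp23 and Hsp27 and close to the 0.10 of Hsp67Ba. Its interval, from -0.52 to -0.10, spans the values of all the other listed genes of the family, large chaperones included. Hsp67Bc's implied means are about 492 in knockdown and 609 in control brains. Hsp22 (mitochondrial), Hsp26 and CG4456 (Hsp67Bb) are the genes small by name for which no value was analysed here. The first and last of these overlap each other on the same strand.

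The large chaperones Hsp83 and Hsc70-4 did not pass the threshold. Hsp83, the fly's cytosolic Hsp90, had a log2 fold change of -0.22 in the authors' deposited table (adjusted p 0.15, interval -0.39 to -0.05). Its mean count of 34864 gives implied means of about 32599 in knockdown and 37884 in control brains. Hsc70-4, the main constitutive Hsp70 and the one that uncoats clathrin vesicles at synapses, had the smallest change, -0.16 in the authors' deposited table (adjusted p 0.062, interval -0.26 to -0.05). It had the highest mean count, 59859, with implied means of about 57048 in knockdown and 63607 in control brains. Of the 6 near-identical stress-inducible Hsp70 genes (Hsp70Aa to Hsp70Bc) 0 are listed. Reads of these copies can be split or dropped in counting, so their absence from the list says little of their RNA. The others not listed are Hsp68, Hsp110, the mitochondrial chaperonin gene Hsp60A with Hsp60B, Hsp60C and Hsp60D, and the cognates Hsc70-1, Hsc70-2, Hsc70-3 (the endoplasmic reticulum BiP) and Hsc70-5 (mitochondrial).

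**Figure D1:**
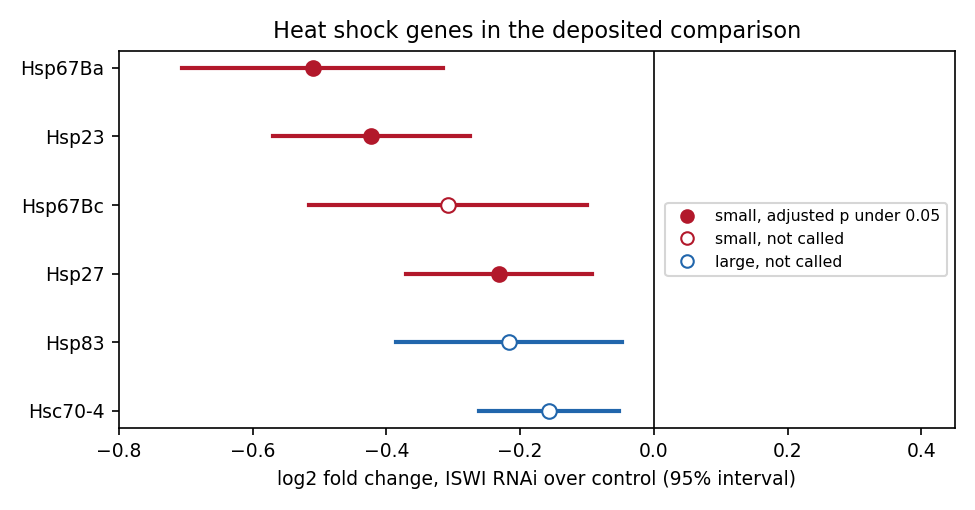
The horizontal axis is the authors' deposited log2 fold change, ISWI knockdown over control, for each listed heat shock gene, with the 95% interval implied by the p as a line, small genes in red, large chaperones in blue and filled points for an adjusted p under 0.05. All 6 listed genes lie below 0, from -0.51 for Hsp67Ba to -0.16 for Hsc70-4, and genes that are neighbours in that order have overlapping intervals.

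The small genes lay lower than the large ones in these listed values, with a median log2 fold change of -0.37 over 4 genes, against -0.19 over 2, in the authors' deposited table. A listed gene has a p under 0.1 and so cannot lie close to 0, and both medians leave out the unlisted members. The larger its error, the further from 0 a gene must lie to be listed. The implied errors were 0.11 for Hsp67Bc, 0.10 for Hsp67Ba, 0.08 for Hsp23 and 0.07 for Hsp27, against 0.09 for Hsp83 and 0.05 for Hsc70-4. The medians and the order of small and large genes thus depend in part on this limit. Every listed small gene had a more negative value than either large one, but the family does not separate cleanly. The difference was taken for each pair of a small and a large gene, with the 2 implied errors combined as if independent. The fold changes come from the same libraries, and how their errors vary together is not known. The intervals of the differences use a normal distribution and are not adjusted for the number of pairs. A t distribution, which gives wider intervals, was not applied to them. In 3 of 8 such pairs the 95% interval of the difference left out 0. These were Hsp67Ba minus Hsc70-4 at -0.35 (interval -0.57 to -0.13), Hsp67Ba minus Hsp83 at -0.29 (interval -0.55 to -0.04) and Hsp23 minus Hsc70-4 at -0.27 (interval -0.45 to -0.09). Hsp27 minus Hsp83 was -0.02, with an interval from -0.23 to 0.20, and Hsp27 minus Hsc70-4 was -0.08, with an interval from -0.25 to 0.10. Thus Hsp27 was not separated from either large chaperone, although it was called and they were not. Within the small family, Hsp67Ba minus Hsp27 was -0.28 (interval -0.52 to -0.04), 1 of 6 pairs of small genes whose interval left out 0.

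Most of the 6 genes are abundant. Divided by gene length, Hsp23 stood 20th among the 2366 listed genes, at a mean normalised count of 22770 per kb. Hsc70-4 followed closely in 22nd place at 22039 per kb. Hsp27 and Hsp83 were next to each other in 35th and 36th place, at 11861 and 11778 per kb. Hsp67Ba was lower at 2676 per kb, and Hsp67Bc lowest at 549 per kb. These levels are means over both genotypes.

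Abundant listed genes of any kind mostly had negative fold changes. Of the 159 listed genes with a mean count over 5000, the authors' deposited table has 127 (79.9%) as negative, and 29 of their 36 calls were lower. Over all listed genes 51.6% were negative in that deposited table. The share negative was 63.0% in the class of Hsp67Ba, from 1000 to 5000, and 58.9% in that of Hsp67Bc, from 200 to 1000. Most listed genes in the class of each of the 6 were thus negative too, by a narrower margin for these 2. The level of unlisted genes of like abundance is not known here. Hsp23 had the most negative fold change of all 159 genes in that class of the authors' deposited table. Hsp67Ba was 7th lowest of the 676 with a mean count from 1000 to 5000 there. Hsp27 and Hsp83 came 15th and 18th of the 159, while Hsc70-4 was 56th. Hsp67Bc was 114th of the 764 with a mean count from 200 to 1000.

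**Figure D2:**
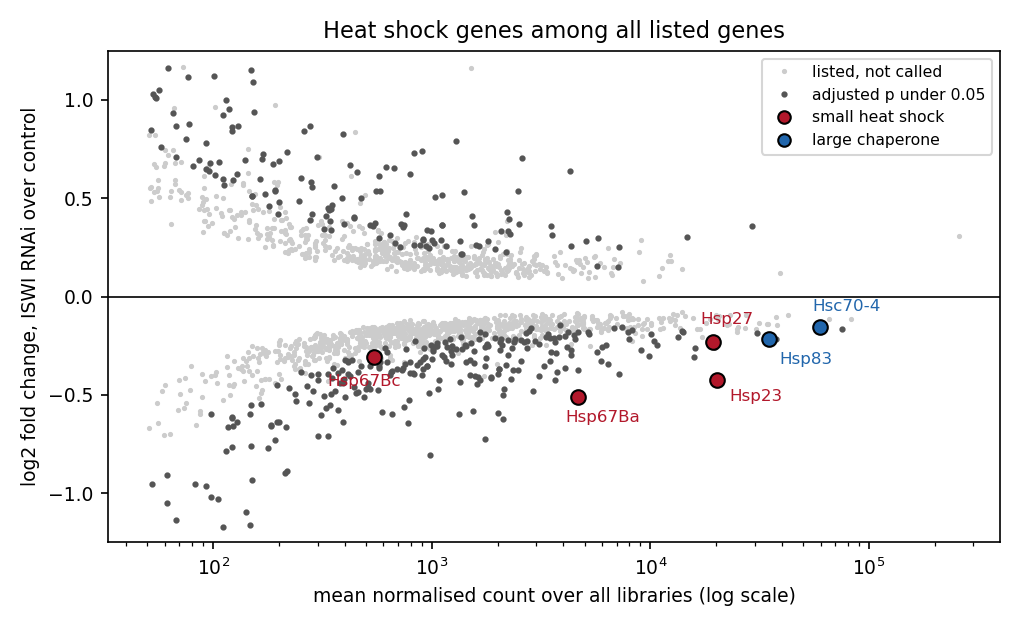
The mean normalised count over all libraries is on a log horizontal axis and the log2 fold change, ISWI knockdown over control, on the vertical axis, for 1845 genes of the authors' deposited table whose mean count is at least 50 and whose change is at most 1.2 (521 others lie outside the axes). The empty band around 0 is the part of the comparison with larger p, and Hsp23 (-0.42) and Hsp67Ba (-0.51) lie furthest below the band among the 6, while Hsp27, Hsp83 and Hsc70-4 lie nearer to it.

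All 7 genes that are small by name lie in 1 cluster on chromosome 3L, from 9371511 to 9385694 (build BDGP6). This stretch of 14.2 kb is known as locus 67B. The listed ones are Hsp67Bc (FBgn0001229, 9371511 to 9372497, minus strand), Hsp67Ba (FBgn0001227, 9377802 to 9379534, minus strand), Hsp23 (FBgn0001224, 9381882 to 9382765, plus strand) and Hsp27 (FBgn0001226, 9384063 to 9385694, plus strand). Each has 1 exon in every annotated transcript. The 3 called genes follow one another at the high-coordinate end of the cluster, with 2.35 kb between Hsp67Ba and Hsp23 and 1.30 kb between Hsp23 and Hsp27. Hsp26 lies 0.37 kb from Hsp67Ba on the same strand and is not listed. Neither are CG4461, Hsp22 and CG4456, which fill the space between Hsp26 and Hsp67Bc. CG4461 is a small heat shock gene of another name and is not counted among the 7. The large genes lie elsewhere, Hsp83 (FBgn0001233) on 3L from 3192969 to 3197059 and Hsc70-4 (FBgn0266599) on 3R from 15242687 to 15246614. Both are on the plus strand and are spliced in at least 1 transcript.

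In the 20 kb on either side of the cluster 4 of 12 protein-coding genes are listed and 0 are called. The authors' deposited table has Pdxk at -0.22 and mRRF1 at -0.44, while Fdx1 and CG4080, which flank the cluster most closely among listed genes, were at 0.34 and 0.18. None of these passed, with adjusted p from 0.12 to 0.36 in the authors' deposited table. The negative values inside the cluster were thus next to values of both signs outside it. Genes with 1 exon were somewhat more often negative than spliced ones among all listed protein-coding genes, 60.2% of 201 against 52.4% of 1977 in the authors' deposited table. At mean counts over 5000 there are 3 such single-exon genes, and Hsp23 and Hsp27 are 2 of them.

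**Figure D3:**
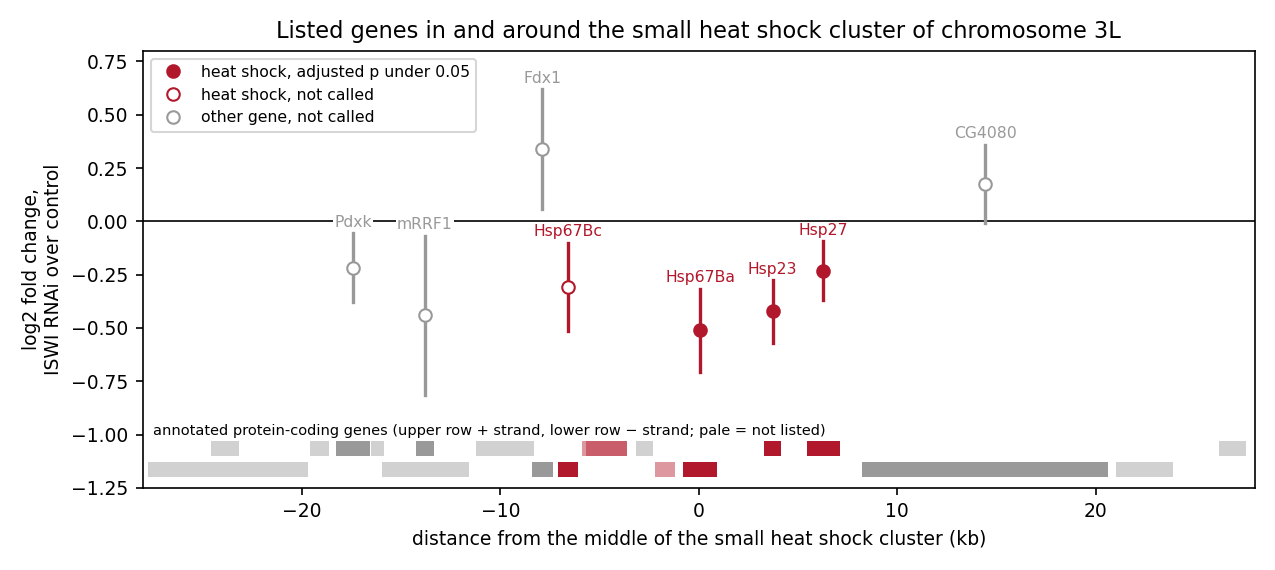
The vertical axis is the authors' log2 fold change, ISWI knockdown over control, with 95% intervals, for listed protein-coding genes. They are drawn at their distance from the middle of the small heat shock cluster in kb, and boxes mark annotated protein-coding genes. The 7 genes that are small by name are in red and other genes, CG4461 among them, in grey. Points are filled for an adjusted p under 0.05. The 4 listed small heat shock genes lie between -0.51 and -0.23, with Fdx1 (0.34) and CG4080 (0.18) as the nearest listed genes on either side.

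Chaperones work with partners, and 72 further genes of protein folding and of heat shock regulation were examined, of which 68 matched the annotation. The rest, Hop, l(2)tid, Tim44 and Pam16, matched no single gene, so no value was analysed for them. Of the 68 matched genes 16 are listed, 4 fell and 0 rose, by the adjusted p of the authors' deposited table. That is 5.88% of the 68 called lower, beside 2.59% of all tested genes, and 0 called higher beside 2.06%, given without a test. The 16 listed members had a median log2 fold change of -0.16 in the authors' deposited table, beside -0.10 over all listed genes, and both medians cover only genes with a p under 0.1. The 6 small heat shock genes whose names do not start with Hsp, among them l(2)efl and CG14207 (HspB8), are not listed.

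DnaJ proteins bring clients to Hsp70 and start its ATPase. Among 22 DnaJ genes, of which 21 matched, jdp fell with a log2 fold change of -0.38 in the authors' deposited table (adjusted p 4.8e-04), which is 76.6% of control. The authors' deposited table has Droj2, Tpr2 and DnaJ-1, the fly's Hsp40, at -0.15, -0.13 and -0.23, and these did not pass. In the set of 11 Hsp70 and Hsp90 co-chaperones, of which all but Hop (10) matched, 0 of the matched ones were called. HIP-R, related to the Hsc70-interacting protein, was at 0.17 in the authors' deposited table (adjusted p 0.051), the only positive value among the 16. A close copy, HIP, lies beside it on the X, so its reads may be shared between copies. CG1416, the Hsp90 activator Aha1, and FKBP59, an Hsp90-binding immunophilin, were at -0.17 and -0.09 in the authors' deposited table.

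The CCT chaperonin is a ring of 8 kinds of subunit that folds actin and tubulin. Its subunit gene CCT5 fell with a log2 fold change of -0.18 in the authors' deposited table (adjusted p 0.031). In the authors' deposited table CCT2, CCT4, CCT8 and CCT1 were listed with it at -0.16, -0.15, -0.15 and -0.15, and did not pass. CCT3, CCT6 and CCT7 are not listed. The 5 listed subunits lay from -0.18 to -0.15 in the authors' deposited table, near the value of Hsc70-4. Listing at a p under 0.1 leaves out values close to 0, so the range of all 8 subunits is not known.

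Of 10 chaperones of the endoplasmic reticulum only Calr (calreticulin) is listed. It fell with a log2 fold change of -0.18 in the authors' deposited table (adjusted p 0.0099). Among 8 mitochondrial folding genes, of which 6 matched, Roe1 (a nucleotide exchange factor) and CG11267 (the chaperonin lid Hsp10) did not pass, with values of -0.20 and -0.16 in the authors' deposited table. Of 7 genes that act on heat shock loci, Parp fell to 66.2% of control, with a log2 fold change of -0.59 in the authors' deposited table (adjusted p 4.0e-11). Its product is known for loosening chromatin at Hsp70 loci during heat shock. That value is more negative than the one of Hsp67Ba, with overlapping intervals (-0.75 to -0.44 for Parp). The rest of the 7, which are Hsf itself, the noncoding RNA Hsromega, foxo, NELF-E, Spt5 and Trl, are not listed.

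**Figure D4:**
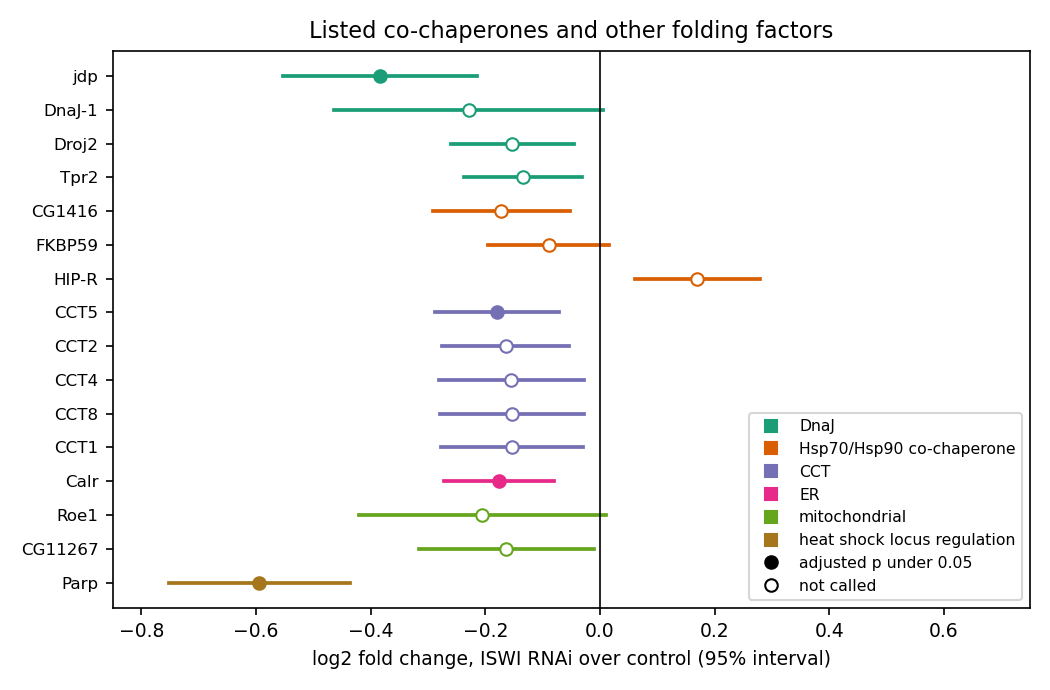
Log2 fold changes from the authors' deposited table, ISWI knockdown over control, are on the horizontal axis, with 95% intervals. The 16 listed further genes of protein folding and heat shock regulation are coloured by group and filled for an adjusted p under 0.05. HIP-R (0.17) is the only one above 0, jdp (-0.38) and Parp (-0.59) lie lowest, and the listed CCT subunits lie between -0.18 and -0.15.

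Markers of other cell types that a brain pool can hold are also among the listed genes. Of 36 such markers 3 were called higher and 0 lower, beside 2.06% and 2.59% of all tested genes, given without a test. Of 7 hemocyte markers 5 are listed, all positive, with log2 fold changes from 0.96 to 1.54 in the authors' deposited table, and 2 rose (NimC1 and Pxn). Muscle markers had 5 of 6 listed, all positive from 0.28 to 0.71 in the authors' deposited table, and bt rose. Ring gland markers had 4 of 6 listed, all negative from -0.43 to -0.24 in that deposited table, and 0 were called. Of 5 fat body markers apolpp was listed at 0.21 and of 4 neuroblast markers dpn at -0.19 in the authors' deposited table, both not called. The 8 glial and 6 neuronal markers are not listed, so their levels, and with them the label of the tissue, could not be checked here. The part of these markers in the changes of the heat shock genes was not tested. Each group is 1 genotype, so the knockdown cannot be told apart from other differences between the stocks.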

How the data were processed

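A directional library kit and single-end sequencing of 100 bases were used, per the labels' protocols. The submitters' processing notes name STAR 2.5.0b, build BDGP6 and DESeq2, and the way reads were counted per gene is not given in those notes. The base mean is a signal, the mean count after division by size factors, per the file headers and those notes. The log2 fold change, p-value and adjusted p-value are the authors' deposited ones, and gene length is as in the deposited table.

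From these, with Python 3.11.15, pandas 2.3.3, numpy 2.4.6 and scipy 1.17.1, the error of every log2 fold change was derived from its p, read as a Wald test of a fold change that was not shrunken. No source used here states either point or the version of the authors' test program, and percents of control and implied group means rest on this too. The number of tests was derived from the adjusted p, the p and its rank, and 54 listed genes with an adjusted p of 1 were left out of that count. Both steps were run on simulated data built with the same formulas. That checks the code and not the reading of the deposited p as a Wald test. Implied group means assume that the base mean averages 4 knockdown and 3 control libraries, and are approximate. Positions, exons and neighbours came from the Ensembl 115 annotation of BDGP6, which gives all 6 genes the same coordinates as the table.

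The members and gene lists were chosen with earlier results of these data known. Named genes are every listed Hsp or Hsc70 gene, called members of the other lists with up to 3 further ones by p, and listed genes within 20 kb of a called member. Beyond this rule Iswi, every listed CCT subunit, some unlisted genes and the proteasome, prefoldin and copper chaperone genes are named. No test across members was made, and the intervals for pairs of genes are a description, not adjusted for the number of pairs. Alternatives were other adjusted p limits (0.1 and 0.01), the family's definition, a mean count of at least 50, a change of at least 1.25-fold, a t distribution and centring on genes of like mean count.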

Additional observations from a re-analysis of the deposited data

How the results depend on the processing

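The count of 3 heat shock genes called lower became 5 at an adjusted p under 0.1, 6 for every listed gene, and 1 without genes that overlap another, an alternative chosen after seeing the data. It stayed within 1.5 times under the other alternatives, and the count called higher was 0 under each. Among the further genes of protein folding and heat shock regulation, the 4 called lower became 7, and the 0 called higher became 1, at an adjusted p under 0.1. Relative to the median of listed genes of like mean count, log2 fold changes were -0.10 for Hsp27, -0.024 for Hsc70-4, -0.14 for Hsp67Bc and -0.084 for Hsp83, with intervals that include 0. That median covers only genes with a p under 0.1 and not the 8463 tested genes left unlisted. It is thus not the level of genes of like abundance, and what these values mean for the calls was not tested. On that scale the median was -0.21 for small genes and -0.054 for large chaperones. With a t distribution of 5 degrees of freedom, the interval of Hsp83 (-0.22) ran from -0.44 to 0.01, and those of the other 5 genes left out 0. No sign reversed under these alternatives. No paired analysis was possible because the deposited comparison holds no values per library, and leaving out replicates was not run for the same reason. A median of called large chaperones could not be given, since 0 were called. With a median implied standard error of 0.06, the smallest change called at a mean count over 5000 was 0.15 on the log2 scale; from 200 to 1000 they were 0.10 and 0.23.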

Other observations

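Groups of protein handling outside the heat shock response, chosen after the table was seen, gave few listed genes. Of 48 genes with proteasome subunit names 4 are listed and 1 was called lower, beside 2.59% of all tested genes called lower. That gene, Prosalpha1, had a log2 fold change of -0.33 in the authors' deposited table (adjusted p 1.92e-05). Prosbeta7 and Rpn10 were at 0.11 and -0.09 in the authors' deposited table and did not pass. The fourth, Rpn12R, had a mean count of 1.2 and an adjusted p of 1, outside the tested genes. The prefoldin complex, which hands actin and tubulin to CCT, had Pfdn1 listed at 0.11 (adjusted p 0.466) in the authors' deposited table. The authors' deposited table has the copper chaperones Ccs at -0.28 (adjusted p 0.228) and Atox1 at -0.21 (adjusted p 0.23), and neither passed.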
